A study of Mus musculus with 5 samples.

Results

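Promoters that lack a CpG island were examined for propionylation of lysine 23 of histone H3 (H3K23Pr) in mouse hearts under pressure overload with and without dietary branched-chain amino acids (BCAA). Of the 30965 regions in the merged ChIP-seq table, 3438 (11.1%) had a promoter count of at least 1, a CpG island count of 0 and a length under 30000 bp, and these are the regions described here. Signal values were not used to choose them. The study crossed 2 diets with 2 operations in male C57Bl/6J mice aged 12 weeks. The 4 libraries, each of 1 pool of 3 hearts, were BCAA-free diet with TAC, BCAA-free diet with sham surgery, BCAA-control diet with TAC, and BCAA-control diet with sham surgery. TAC is transverse aortic constriction, an operation that constricts the aortic arch and so puts the ventricle under pressure. The BCAA-free diet held no leucine, isoleucine or valine, while the control diet held them at chow levels. Each diet began 4 days before surgery, and hearts were taken 2 weeks after it. Each group had a single pooled library, so every difference below lies between 2 pools, has no replicate check and carries no p-value. The titles of the samples define the groups here, although for 3 samples the treatment label says otherwise. The chromatin was of whole hearts, so a lower signal at the genes of a cell type can come from fewer such cells or from less of the mark per cell, and these cannot be told apart.

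Propionylation is a short-chain acyl mark laid down from propionyl-CoA, which cells make from isoleucine, valine, odd-chain fatty acids and other sources, and acylation of lysines in the H3 tail is generally found at active promoters and enhancers. Mammalian promoters fall into a CpG-island class, typical of housekeeping and developmental genes, and a CpG-poor class, typical of genes restricted to a tissue or switched on by a stimulus. In the heart the CpG-poor class includes many sarcomere, natriuretic peptide, collagen, chemokine and interferon-induced genes.

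RefSeq promoters of 8 genes, read from build GRCm38.p6, show what these starts look like. They stand for 4 kinds of gene described below, namely the load-responsive natriuretic peptides (Nppa, Nppb), muscle structural genes (Actc1, Myoz2), a fibroblast collagen and a chemokine (Col3a1, Ccl8), and interferon-induced genes (Oas1a, Ifit3). Col3a1 was picked for its sequence, after its values were seen. Each sequence is the 250 bases before the annotated start, read 5′ to 3′ on the strand of the gene. The intervals are chr4:148000472-148000721 for Nppa and chr4:147985650-147985899 for Nppb, both on the plus strand. They are chr2:114052876-114053125 for Actc1 and chr3:123034988-123035237 for Myoz2, both on the minus strand. Col3a1 lies at chr1:45311288-45311537 and Ccl8 at chr11:82114935-82115184, both on the plus strand. Oas1a lies at chr5:120907526-120907775 on the minus strand and Ifit3 at chr19:34583279-34583528 on the plus strand. Capitals mark every CpG, TATAAA, the CArG box, the MEF2 site and the GAAA repeat (GAAA, any 2 bases, GAAA, the core of the interferon-stimulated response element), each searched on both strands.
Nppa: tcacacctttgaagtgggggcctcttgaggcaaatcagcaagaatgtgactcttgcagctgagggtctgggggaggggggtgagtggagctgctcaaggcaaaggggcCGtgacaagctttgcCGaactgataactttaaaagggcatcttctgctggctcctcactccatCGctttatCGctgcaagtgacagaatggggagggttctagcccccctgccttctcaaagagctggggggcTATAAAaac
Nppb: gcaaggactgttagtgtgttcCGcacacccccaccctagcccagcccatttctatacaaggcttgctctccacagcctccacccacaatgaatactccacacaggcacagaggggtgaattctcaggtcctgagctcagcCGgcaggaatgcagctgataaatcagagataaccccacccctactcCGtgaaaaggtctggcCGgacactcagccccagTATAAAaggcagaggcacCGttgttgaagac
Actc1: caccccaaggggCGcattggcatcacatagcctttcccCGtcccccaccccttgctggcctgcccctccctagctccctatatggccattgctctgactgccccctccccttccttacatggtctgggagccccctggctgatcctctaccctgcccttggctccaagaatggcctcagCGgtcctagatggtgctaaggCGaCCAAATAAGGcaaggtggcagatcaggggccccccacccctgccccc
Myoz2: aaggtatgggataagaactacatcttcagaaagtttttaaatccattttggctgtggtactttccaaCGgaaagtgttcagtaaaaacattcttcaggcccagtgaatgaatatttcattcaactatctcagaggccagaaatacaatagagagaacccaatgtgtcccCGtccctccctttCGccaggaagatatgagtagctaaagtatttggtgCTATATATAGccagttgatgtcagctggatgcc
Col3a1: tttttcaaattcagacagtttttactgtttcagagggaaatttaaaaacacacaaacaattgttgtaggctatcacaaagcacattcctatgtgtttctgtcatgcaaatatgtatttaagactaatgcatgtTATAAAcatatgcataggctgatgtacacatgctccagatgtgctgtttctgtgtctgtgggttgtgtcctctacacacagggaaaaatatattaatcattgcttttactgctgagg
Ccl8: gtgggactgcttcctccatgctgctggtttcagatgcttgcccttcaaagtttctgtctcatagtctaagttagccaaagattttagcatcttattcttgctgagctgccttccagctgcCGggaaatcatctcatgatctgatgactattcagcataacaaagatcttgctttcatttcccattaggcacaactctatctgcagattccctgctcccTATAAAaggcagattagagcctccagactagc
Oas1a: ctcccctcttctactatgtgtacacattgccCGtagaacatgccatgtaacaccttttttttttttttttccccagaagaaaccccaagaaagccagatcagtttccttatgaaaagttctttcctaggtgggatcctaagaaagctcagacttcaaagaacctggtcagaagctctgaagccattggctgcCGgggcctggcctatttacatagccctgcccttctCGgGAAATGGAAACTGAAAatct
Ifit3: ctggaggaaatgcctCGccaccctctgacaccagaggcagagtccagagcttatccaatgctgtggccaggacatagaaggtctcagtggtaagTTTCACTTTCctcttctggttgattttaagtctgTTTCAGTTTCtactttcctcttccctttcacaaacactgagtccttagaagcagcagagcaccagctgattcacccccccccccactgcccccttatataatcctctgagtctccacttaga

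Across the printed 250 bases the number of CpG was 5 for Nppb, 4 for Nppa and for Actc1, 3 for Myoz2 and for Oas1a, 1 for Ccl8 and for Ifit3, and 0 for Col3a1. TATAAA began 31 bases before the start of Nppb, 32 before that of Ccl8, 9 before that of Nppa and 117 before that of Col3a1. The CArG box of Actc1 began 47 bases and the MEF2 site of Myoz2 33 bases before the start. Oas1a held 2 overlapping GAAA repeats that began 20 and 14 bases before its start, and Ifit3 held 2 on the other strand, 156 and 122 bases before. A match is a run of letters and was not tested as a binding site.

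Over the class, promoters were compared by the same counts. A start of 2374 listed genes lay inside a region, and 1530 of these starts matched a RefSeq promoter of 300 bases (250 before the start and 50 after). Their median was 7 CpG per promoter, with an observed-to-expected CpG ratio of 0.357, whereas 7675 starts inside CpG-island promoter regions had a median of 23 CpG and a ratio of 0.806. All 32851 RefSeq promoters had a median of 7 CpG and a ratio of 0.384, so the class is near the typical promoter of that table and it is the CpG-island promoters that stand apart. TATAAA was present in 13.6% of the promoters without CpG island and in 5.68% of those with one, and GGGCGG, the core of an Sp1 site, in 33.3% and 70.7%. Over all RefSeq promoters TATAAA was present in 13.6% and GGGCGG in 35.7%. The GAAA repeat was found in 14 of 22 matched promoters of interferon response genes (63.6%), in 6.6% of all matched promoters without CpG island and in 3.44% of all RefSeq promoters. The MEF2 site was found in 3 of 19 contractile gene promoters (15.8%), against 0.557% of all RefSeq promoters, and TATAAA in 4 of 7 fibroblast and 7 of 17 chemokine and cytokine promoters.

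**Figure D1:**
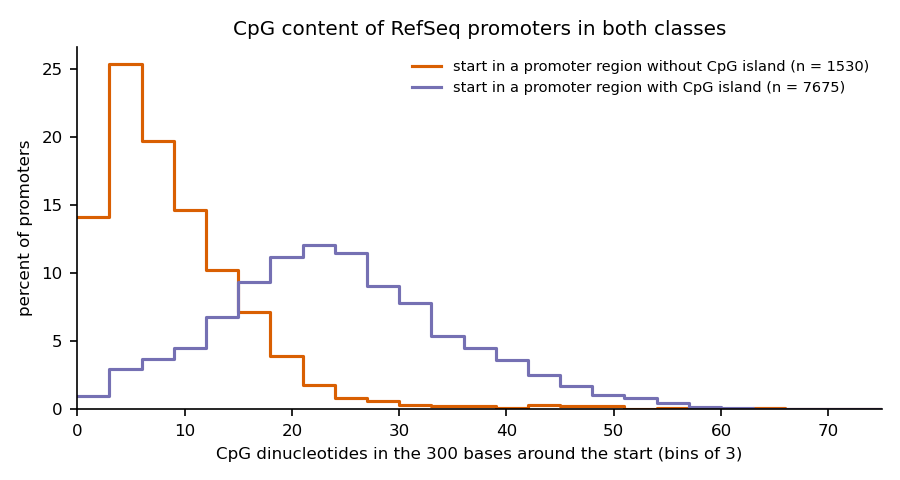
CpG dinucleotides in the 300 bases around the start (horizontal axis, bins of 3) against the percentage of RefSeq promoters (vertical axis), for starts in promoter regions without a CpG island (n = 1530) and with one (n = 7675). The medians are 7 and 23 CpG, and the 2 distributions overlap: 13% of the promoters without CpG island hold more than 15 CpG.

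The deposited promoter count is broader than the start itself. For all 24152 regions with a listed gene, a count above 0 coincided with a reach from 7500 bp before to 2500 bp after a listed start. Of the 3438 regions, 2176 (63.3%) contained a start, 983 (28.6%) lay wholly upstream of the nearest start and 279 (8.12%) lay wholly downstream. Median length was 5399 bp, with a range of 399 to 29999 bp, and 2988 regions held 1 promoter, 386 held 2 and 64 held 3 or more. At the length limit, the longest region kept had a mean signal of 14.9 over the 4 libraries and the shortest of 160 regions left out, at 30199 bp, had 10.2.

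H3K23Pr at these promoters was weaker than at CpG-island promoters and slightly stronger than in gene regions with neither feature. The deposited average signal of a region (coverage in units that no source here scales) had a median of 8.63 in BCAA-free TAC hearts, 9.06 in BCAA-free sham hearts, 9.93 in BCAA-control TAC hearts and 9.09 in BCAA-control sham hearts. In the same order, CpG-island promoter regions had medians of 13.9, 14.4, 17.6 and 14.3, and gene regions with neither feature 7.57, 7.35, 7.8 and 7.51. Only 13% of the regions without CpG island had a mean signal above the median of CpG-island promoters. The signal was also flatter than in CpG-island promoters, with a peak 3.32 times the average at the median, against 5.03 times there. The ratio was 3.45 over all regions and 2.96 in gene regions with neither feature, so the class is near the whole table in this. All 4 libraries called 55.3% of the regions, against 87.5% of CpG-island promoters and 58.3% of all regions. Called in 1 library only were 639 regions (18.6%), beside 18.8% of all regions, and 296 of them were called in the BCAA-control TAC library. The class is thus near the whole table in how often its regions were called.

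**Figure D2:**
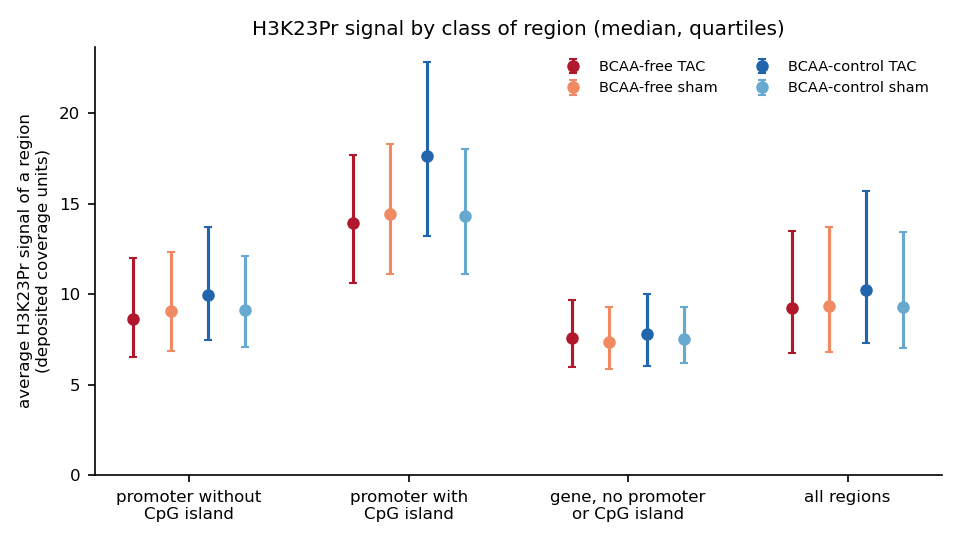
Average H3K23Pr signal per region in deposited coverage units (vertical axis) for 4 sets of regions, 1 point per library (median) with bars from the lower to the upper quartile over regions, which are not errors of the library. The promoter regions without CpG island have medians of 8.63 to 9.93, below the 13.9 to 17.6 of CpG-island promoters, and in both sets the BCAA-control TAC library is the highest.

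The strongest signals in the class lay in regions named after a mixed set of genes. The highest mean was at 5430416O09Rik (chr4:43724600-43746199), with 51.8 in BCAA-free TAC, 53.9 in BCAA-free sham, 61.8 in BCAA-control TAC and 54.9 in BCAA-control sham. Next was Gpihbp1 (chr15:75587200-75602199), which anchors lipoprotein lipase to the capillary wall, with 54.0, 42.5, 69.9 and 48.4 in the same order. Both TAC libraries were above their sham library at Gpihbp1, and the control TAC library was the highest. The Gpihbp1 region was called in 2 libraries only, despite its high signal. The other 8 of the top 10 were Ifitm5, Shisa5, Cyp2d22, C1qtnf6, Cldn15, Cd300lg, 1700031P21Rik and Gm4285, and their signals ran between 28.5 and 53.6. Some of the top 10 regions are shared by several genes: that of Ifitm5 holds 4 promoters and that of 5430416O09Rik holds 3. The Gm4285 region also lists Tpt1 and Snora31 and contains no listed start. Cd300lg is an endothelial surface glycoprotein, and Cldn15 is a tight-junction claudin.

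The level depended on where the region lay relative to the start. Regions that contained a start had a median mean signal of 10.2, against 7.79 for the upstream and 7.64 for the downstream regions. For 339 of the 983 upstream regions the start of the gene lay in a CpG-island promoter region, where the median signal was 14.6 against 7.79 in the upstream region. For 170 the start lay in another region without CpG island (9.17 against 7.97), for 55 in a region of 30 kb or more, and for 419 in none. Genes named below show such pairs.

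Ppm1k encodes the mitochondrial phosphatase that activates the BCAA dehydrogenase complex. Its start region (chr6:57528000-57538599) had 13 in BCAA-free TAC, 13.3 in BCAA-free sham, 13 in BCAA-control TAC and 12.8 in BCAA-control sham. The neighbouring upstream region (chr6:57540800-57546799, midpoint at -8373 bp from the start) had 13.3, 9.04, 6.8 and 8.32 in the same order. The start region was level over the 4 libraries while the upstream one was highest in BCAA-free TAC and lowest in BCAA-control TAC, 1.96-fold apart (95% counting interval 1.64 to 2.36). Max, the dimer partner of Myc, had 14.6, 11.2, 7.28 and 6.47 in its upstream region (chr12:76968200-76975999), where both BCAA-free libraries exceeded both control libraries. Its CpG-island start region had 19.6, 17.1, 18.4 and 18.2. Ryr2, the sarcoplasmic calcium release channel, had 16.4, 8.64, 9.18 and 7.86 upstream (chr13:12111600-12118399) and 14.1, 7.56, 8.74 and 7.99 in the region of 58399 bp that holds its start, so both of its regions were highest in BCAA-free TAC.

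For the comparisons, the log2 ratio of average signals was taken with 1 added to both, which understates differences of weak regions, and regions at least 1.5-fold apart on that scale were counted. Folds given for single genes are plain ratios, with exact 95% Clopper-Pearson intervals from the approximate tags behind the signal. These intervals cover counting error only and say nothing of the spread between hearts. Median tags per region were 204 in BCAA-free TAC, 215 in BCAA-free sham, 234 in BCAA-control TAC and 216 in BCAA-control sham, against 239 to 268 over all regions. The libraries also differed as a whole. The median log2 ratio over all 30965 regions was 0.16 for TAC over sham on the control diet, -0.03 for TAC over sham on the BCAA-free diet, -0.20 for BCAA-free over control after TAC, and -0.01 for BCAA-free over control after sham. A value is therefore read against that median, and no source here states how the libraries were scaled.

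In no comparison did the class as a whole stand far from the table. After TAC on the BCAA-free diet 273 regions (7.94%) were higher and 358 (10.4%) lower, against 8.05% and 9.23% of all regions, with a median log2 ratio of -0.06. On the control diet 192 (5.58%) were higher and 59 (1.72%) lower after TAC, against 5.74% and 2.19% of all regions, with a median of 0.13. Between the TAC libraries 98 (2.85%) were higher and 409 (11.9%) lower on the BCAA-free diet, against 3.82% and 9.42%, with a median of -0.22. Between the sham libraries 86 (2.5%) were higher and 76 (2.21%) lower on the BCAA-free diet, against 2.76% and 2.62%, with a median of -0.03. These shares are near the background and are not a result about the class. The shares of all regions are also those against which counts of list genes past 1.5-fold are read. Ratios above 0 made up 43.8% of the class for TAC on the BCAA-free diet, 66.8% for TAC on the control diet, 27.3% between the TAC libraries and 46.2% between the sham libraries, against which the counts of genes above or below 0 in the lists are read.

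Relative to the median of all regions, the balance of the counts changes sides where the libraries differ as a whole. The counts become 85 higher and 145 lower for TAC on the control diet, and 233 higher and 132 lower for BCAA-free over control after TAC. CpG-island promoters were more uniform: after TAC on the control diet 94.1% of them had a ratio above 0 and the median was 0.28, against 66.8% and 0.13 in the class without CpG island. Short regions passed 1.5-fold more often in some comparisons. Among the 874 regions up to 2999 bp, 25.6% were lower on the BCAA-free diet after TAC, against 2.96% among those of 9799 bp or more, whereas the share higher after TAC on the BCAA-free diet was 8.81% and 8.05%.

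**Figure D3:**
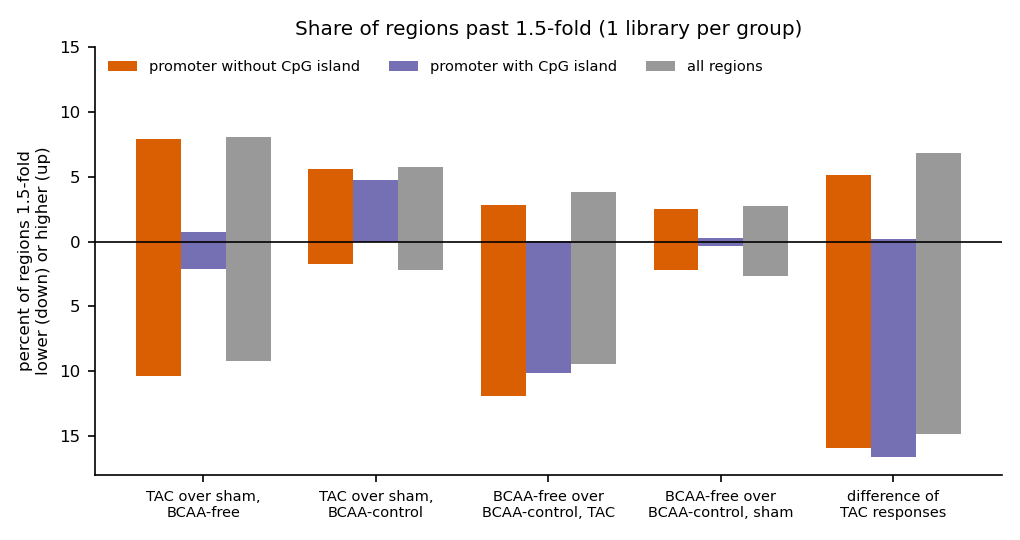
Percentage of regions at least 1.5-fold higher (upward bars) or lower (downward bars) in each comparison, for promoter regions without CpG island, promoter regions with one, and all regions, with 1 library per group. The regions without CpG island lie close to all regions in each bar, for example 7.94% against 8.05% higher after TAC on the BCAA-free diet, and CpG-island promoters are seldom higher on the BCAA-free diet.

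Contractile and Z-disc genes carried more H3K23Pr after TAC on the BCAA-free diet. A region without CpG island represented 24 of 43 listed genes. After TAC on the BCAA-free diet 12 were at least 1.5-fold higher and none lower, beside 8.05% and 9.23% of all regions. Above 0 were 23 of 24, with a list median of 0.59 (all regions -0.03). On the control diet 18 of 24 were above 0 and none passed 1.5-fold, with a median of 0.20 (all regions 0.16). Between the TAC libraries 5 were higher and none lower on the BCAA-free diet, at a median of 0.41 (all regions -0.20). By peak signal the list medians were 0.37 after TAC on the BCAA-free diet, 0.43 on the control diet and 0.09 between the TAC libraries. The peak medians over all regions were -0.13, 0.28 and -0.40 in the same order. The sham libraries were level, with a median of 0.01.

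Among sarcomere proteins, Myh6 and Myh7 encode the fast alpha and slow beta cardiac myosin heavy chains. The Myh6 region (chr14:54954800-54980399) had an average signal of 18.6 in BCAA-free TAC, 12.1 in BCAA-free sham, 15.5 in BCAA-control TAC and 11.9 in BCAA-control sham. Myh7 (chr14:54987000-55010999) had 12.1, 7.11, 8.31 and 6.69 in the same order. Both were higher after TAC on either diet, by 1.53-fold (1.43 to 1.64) for Myh6 and 1.7-fold (1.55 to 1.86) for Myh7 on the BCAA-free diet, and by 1.3-fold (1.21 to 1.4) and 1.24-fold (1.12 to 1.37) on the control diet. The genes lie side by side and are near-identical in parts, so reads can be shared between them, and the Myh6 region also holds the starts or windows of other listed genes.

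Actc1, cardiac alpha-actin, had a wide difference between diets. Its region (chr2:114046400-114060199) had 23.4 in BCAA-free TAC, 14.0 in BCAA-free sham, 12.7 in BCAA-control TAC and 10.9 in BCAA-control sham. The BCAA-free TAC library stood above the other 3, 1.67-fold (1.53 to 1.82) above its sham library and 1.84-fold (1.69 to 2.01) above the control TAC library. Tnnt2 (cardiac troponin T) and Myl2 (ventricular regulatory light chain) were likewise highest in BCAA-free TAC, with BCAA-control TAC next. Tnnt2 had 18.3, 11.1, 14.7 and 11.4, and Myl2 had 17.1, 10.9, 14.3 and 10.8, in the order BCAA-free TAC, BCAA-free sham, BCAA-control TAC and BCAA-control sham.

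The largest ratios of the list after TAC on the BCAA-free diet belonged to Smpx, a small muscle protein at the costamere, Trim54, a muscle ring-finger protein, Myoz2, a Z-disc protein that binds calcineurin, and Myom2, an M-band protein. Smpx had 12.4 in BCAA-free TAC and 5.12 in BCAA-free sham, 2.42-fold (1.84 to 3.23), against 7.04 in BCAA-control TAC and 5.73 in BCAA-control sham. Trim54 had 14.6 and 7.5 on the BCAA-free diet, 1.95-fold (1.7 to 2.25), and 11.5 and 8.73 on the control diet, TAC before sham. Myoz2, whose promoter and its MEF2 site are printed above, had 17.1 and 9.88 on the BCAA-free diet and 11.3 and 9.82 on the control diet, TAC before sham. Myom2 had 17.4 and 10.1 on the BCAA-free diet and 17.5 and 15.6 on the control diet, TAC before sham. All 4 had more signal in TAC than in sham on both diets, by more on the BCAA-free diet. On the control diet the counting interval of Smpx (0.911 to 1.67) included 1. The control-diet log2 ratios of Myoz2 (0.18) and Myom2 (0.16) were near the median of all regions (0.16). Tnni3, cardiac troponin I, was the exception: its region (midpoint at -5456 bp from its start, and shared with other listed genes) had 11.7 in BCAA-free TAC, 16.4 in BCAA-free sham, 17.7 in BCAA-control TAC and 11.9 in BCAA-control sham.

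Calcium handling and ion channel genes followed the same direction on the BCAA-free diet. Of 10 genes with a region, 6 were higher and none lower after TAC on the BCAA-free diet, beside 8.05% and 9.23% of all regions. The median was 0.61 (all regions -0.03), or 0.52 by peak signal (all regions -0.13). On the control diet 1 was higher and none lower, with a median of 0.09, which falls to -0.06 relative to the median of all regions. Trdn (triadin, which couples the calcium release channel to calsequestrin) had 11.2 in BCAA-free TAC and 5.53 in BCAA-free sham, 2.03-fold (1.76 to 2.35), against 6.25 in BCAA-control TAC and 6.81 in BCAA-control sham. Slc8a1, the sodium-calcium exchanger, had 11.2 and 5.99 on the BCAA-free diet, 1.87-fold (1.66 to 2.11), and 6.71 and 7.15 on the control diet, TAC before sham. For both genes BCAA-free TAC was alone in its height, and the other 3 libraries lay within 5.53 and 7.15. On the plain log2 scale the TAC response on the BCAA-free diet exceeded that on the control diet by 1.14 for Trdn (0.85 to 1.44 from counting error) and by 1.00 for Slc8a1 (0.75 to 1.25).

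Muscle energy metabolism genes differed less. Of 13 with a region, 3 were higher and none lower after TAC on the BCAA-free diet, at a median of 0.34, and none passed 1.5-fold on the control diet, where the median was 0.12. Relative to the median of all regions these medians become 0.37 and -0.04. Ckmt2, the mitochondrial creatine kinase, had 19.7 in BCAA-free TAC, 11.0 in BCAA-free sham, 15.4 in BCAA-control TAC and 13.2 in BCAA-control sham. Ckm, the cytosolic muscle creatine kinase, had 12.6, 7.59, 10.4 and 7.88 in the same order. Pgam2, the muscle phosphoglycerate mutase, had 15.2, 9.54, 15.8 and 12.0. In all 3 the TAC library exceeded the sham library of its diet. The region of Mb (myoglobin), which lies upstream of its start, had 6.48, 7.59, 6.11 and 7.65, with counting intervals of both TAC ratios that include 1.

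The natriuretic peptide genes, classic markers of a loaded ventricle, had a higher signal after TAC on both diets. Nppa (chr4:147997200-148001999) had 7.75 in BCAA-free TAC, 2.62 in BCAA-free sham, 9.08 in BCAA-control TAC and 3.43 in BCAA-control sham. Nppb (chr4:147984200-147987999) had 7.24, 3.75, 9.61 and 3.51 in the same order. In both genes each TAC library was above both sham libraries. The Nppa region was called in 2 libraries and the Nppb region in 1, and a region that enters the merged table only through libraries where it is high has to differ from the others. The Nppa ratio was 2.96-fold (2.18 to 4.09) on the BCAA-free diet and 2.65-fold (2.03 to 3.55) on the control diet, and the Nppb ratio 1.93-fold (1.41 to 2.64) and 2.73-fold (2.01 to 3.72). The difference between diets in the TAC response, with its counting interval, included 0 for Nppa (0.16, -0.42 to 0.74) and for Nppb (-0.50, -1.12 to 0.11).

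The list of stress and fetal programme genes, which includes Nppa and Nppb, had members that differed by diet. Of 13 with a region, 5 were higher and 1 lower after TAC on the BCAA-free diet, beside 8.05% and 9.23% of all regions. On the control diet 3 were higher and none lower, beside 5.74% and 2.19%. The median was 0.28 on both diets, but relative to the median of all regions it was 0.31 on the BCAA-free diet and 0.12 on the control diet. Nppa and Nppb were among those higher on each diet. Ankrd1, a stretch-induced titin-binding repressor, had 13.5 in BCAA-free TAC and 7.95 in BCAA-free sham, 1.7-fold (1.45 to 1.99), against 8.62 in BCAA-control TAC and 8.12 in BCAA-control sham, 1.06-fold (0.893 to 1.26). Tnc (tenascin C, a matrix protein of injured tissue) went the other way, with 6.35 in BCAA-free TAC and 5.47 in BCAA-free sham, against 11.1 in BCAA-control TAC and 4.03 in BCAA-control sham, 2.75-fold (1.94 to 4.02). The Tnc region, of 2399 bp, was called in 1 library, so it entered the table through a single library, and the Ankrd1 region was called in all 4. Tnc was highest in BCAA-control TAC and Ankrd1 in BCAA-free TAC. Thbs1, the matricellular thrombospondin 1, had 9.75, 16.3, 14.1 and 12.9 and was the gene of the list that was lower after TAC on the BCAA-free diet.

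**Figure D4:**
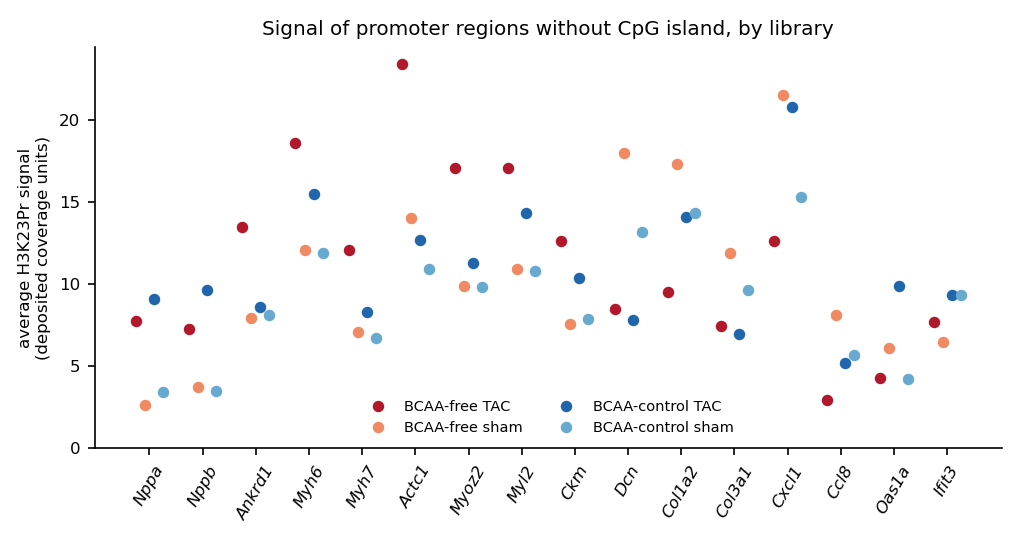
Average H3K23Pr signal in deposited coverage units (vertical axis) of 16 promoter regions without CpG island (horizontal axis, gene symbols), 1 point per library. Nppa and Nppb are higher in both TAC libraries, Ankrd1, Actc1 and Myoz2 are highest in BCAA-free TAC, and Dcn is lower in both TAC libraries than in both sham libraries.

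Most fibroblast and matrix genes differed in the opposite direction from the contractile genes. Of 28 fibroblast markers 14 had a region. After TAC on the BCAA-free diet 9 were lower and none higher (median -0.64), beside 9.23% and 8.05% of all regions. On the control diet 5 were lower and none higher (median -0.35, all regions 0.16), beside 2.19% and 5.74% of all regions. There 3 of the 14 were above 0. Htra3, through a region upstream of its start, had 19.9 in BCAA-control TAC and 13.3 in BCAA-control sham, 1.5-fold (1.37 to 1.64) as a plain ratio. Mfap5 had 18.2 and 14.3 in these libraries. Between the sham libraries all 14 were above 0 on the BCAA-free diet, none past 1.5-fold, with a median of 0.34 (all regions -0.01). Between the TAC libraries the median was 0.00, which is 0.20 above that of all regions, and 1 marker was higher. By peak signal the 4 medians were -0.69, -0.35, 0.32 and -0.19, against -0.13, 0.28, 0.00 and -0.40 over all regions.

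Dcn, the small proteoglycan decorin, had 8.47 in BCAA-free TAC, 18 in BCAA-free sham, 7.83 in BCAA-control TAC and 13.2 in BCAA-control sham over 21999 bp (chr10:97466000-97487999). It was 0.47-fold (0.432 to 0.51) of its sham library on the BCAA-free diet and 0.594-fold (0.542 to 0.65) on the control diet. Vit, the matrix protein vitrin, had 7.06, 13.8, 5.28 and 10.5 in the same order of libraries. In both genes each TAC library lay below both sham libraries, and the BCAA-free sham library was the highest. Scara5, a ferritin receptor whose region was called in 1 library, had 2.95, 6.22, 3.39 and 3.84, and Abca8a, a lipid transporter, had 6.18, 11.9, 5.58 and 9.3. Ogn (osteoglycin) and Omd (osteomodulin), neighbouring small proteoglycans, were among the lower on the control diet, with 3.81 in TAC and 7.14 in sham for Ogn and 6.97 and 12.0 for Omd.

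Extracellular matrix genes had a region for 28 of 57 listed, 7 of them shared with the fibroblast markers. After TAC on the BCAA-free diet 9 were lower and none higher (median -0.38), beside 9.23% and 8.05% of all regions. On the control diet 5 were lower and 2 higher (median -0.03), beside 2.19% and 5.74% of all regions. Col6a6, a collagen VI chain, had 4.58 in BCAA-free TAC, 10.5 in BCAA-free sham, 5.88 in BCAA-control TAC and 9.4 in BCAA-control sham. Thbs2, a matricellular thrombospondin, had 7.21, 14.1, 7.5 and 11.0. Col1a2, a chain of collagen I, differed by diet, with 9.5 in BCAA-free TAC and 17.3 in BCAA-free sham, 0.55-fold (0.476 to 0.633), against 14.1 in BCAA-control TAC and 14.3 in BCAA-control sham, 0.982-fold (0.859 to 1.12). Col3a1, of the promoter printed without a CpG, had 7.43, 11.9, 6.94 and 9.63, lower after TAC on both diets. The 2 matrix genes past 1.5-fold upward in TAC hearts of the control diet were Tnc and Col16a1, the second through a region upstream of its start.

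Levels over the marker lists of cell types were read beside these results. The summed average signal of the 13 cardiomyocyte markers with a region (of 20) was 210 in BCAA-free TAC, 141 in BCAA-free sham, 160 in BCAA-control TAC and 134 in BCAA-control sham. The sum over the 14 fibroblast markers was 117, 179, 119 and 139 in the same order. The cardiomyocyte sum was highest in BCAA-free TAC, and the fibroblast sum was close in both TAC libraries and below both sham libraries. By median the fibroblast markers had 7.69 in BCAA-free TAC, 12.5 in BCAA-free sham, 6.96 in BCAA-control TAC and 9.46 in BCAA-control sham. Their part in the results for contractile, calcium and matrix genes was not tested, and 9 of the 24 contractile genes are themselves cardiomyocyte markers. No marker region was at 0 in any library, and the lowest value among listed genes was 2.62.

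Endothelial markers had a diet difference that ran the other way from that of the fibroblast markers. Of 30 listed, 13 had a region, and all 13 were below 0 between the sham libraries on the BCAA-free diet, none past 1.5-fold, with a median of -0.30 (all regions -0.01). Between the TAC libraries the median was -0.28 with 11 of 13 below 0, which becomes -0.08 relative to all regions. After TAC the medians were 0.30 on the BCAA-free diet and 0.28 on the control diet, and 1 marker, Ly6c1, passed 1.5-fold on the BCAA-free diet. Relative to the median of all regions these TAC medians become 0.33 and 0.12. Ly6c1, a surface antigen of capillaries and monocytes, had 16.2 in BCAA-free TAC, 10 in BCAA-free sham, 19.6 in BCAA-control TAC and 14.5 in BCAA-control sham. Robo4, an endothelial guidance receptor, had 19.9, 14.0, 26.0 and 18, and Mmrn2, an endothelial matrix protein, had 17.1, 12.0, 19.9 and 16.2. In these genes BCAA-free sham was the lowest library and BCAA-control TAC the highest. The summed signal of the list was 240 in BCAA-free TAC, 193 in BCAA-free sham, 288 in BCAA-control TAC and 235 in BCAA-control sham. Ly6 genes have near-identical neighbours, so their reads are uncertain.

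Chemokine, cytokine and inflammation genes had a lower signal after TAC on the BCAA-free diet. Of 52 listed, 29 had a region without CpG island, and 28 of the 29 were below 0, with 10 lower, none higher and a median of -0.43 (all regions -0.03). On the control diet 2 were higher and 1 lower after TAC, with a median of 0.14, which is -0.02 relative to all regions. The BCAA-free minus the control TAC response had a list median of -0.59, with 15 of 29 at least 1.5-fold lower and none higher, beside 15.9% of all regions without CpG island and 14.8% of all regions that were lower and 5.15% and 6.8% that were higher. Between the sham libraries 3 were higher and none lower on the BCAA-free diet, at a median of 0.25.

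Ccl2, which draws monocytes into tissue, had 8.14 in BCAA-free TAC, 16.1 in BCAA-free sham, 11.2 in BCAA-control TAC and 9.71 in BCAA-control sham. Its TAC ratio was 0.505-fold (0.433 to 0.588) on the BCAA-free diet and 1.15-fold (0.985 to 1.35) on the control diet. Ccl11, the eosinophil attractant eotaxin, had 5.42, 13.3, 5.69 and 6.78, and Ccl8, a further monocyte chemokine with a region called in 1 library, had 2.96, 8.14, 5.21 and 5.7. Each of these 3 genes, which sit in 1 chemokine cluster on chromosome 11, was highest in the BCAA-free sham library. Saa3, an acute-phase serum amyloid, had 6.61, 12.2, 8.66 and 10.2 in the same order. The cluster genes are paralogs, and reads of near-identical copies can be misplaced.

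Neutrophil chemokines on chromosome 5 showed the diet difference as well. Cxcl1 had 12.6 in BCAA-free TAC, 21.5 in BCAA-free sham, 20.8 in BCAA-control TAC and 15.3 in BCAA-control sham. The start region of Cxcl2 had 6.63, 9.78, 11.9 and 8.12, and the upstream region (midpoint at -4100 bp from the start, chr5:90898200-90901399) had 7.26, 12.6, 12.6 and 7.11. In all 3 regions the TAC library was below the sham library on the BCAA-free diet and above it on the control diet. Pf4, the platelet and macrophage chemokine, had 6.54, 12.1, 13.6 and 8.4 in a region (chr5:90770400-90775199) that also holds other chemokine genes. Ccl4 and Il1b, macrophage inflammatory genes, were the 2 of the list past 1.5-fold upward in control-diet TAC hearts, with 6.48 and 3.5 for Ccl4 and 8.19 and 4.59 for Il1b, TAC before sham, in regions called in 1 and in 2 libraries.

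Macrophage and monocyte markers, 19 of 34 with a region, had a median of -0.43 between the TAC libraries, BCAA-free over control (all regions -0.20). Of the 19, 16 were below 0 and 3 at least 1.5-fold lower, in a comparison where 27.3% of the class was above 0 and 11.9% lower, so these counts are near the background. The 3 were Pf4, Fcgr1 and Cd86, and the last 2, called in 1 library each, encode an Fc receptor and a costimulatory ligand. Their summed signal was 120 in BCAA-free TAC, 148 in BCAA-free sham, 166 in BCAA-control TAC and 166 in BCAA-control sham. This order differs from that of the chemokines, whose summed signal was 230, 329, 312 and 288. The part of macrophage number in the chemokine and interferon results was not tested.

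Interferon response genes were lower on the BCAA-free diet after TAC and, relative to all regions, by nearly as much after sham. Of 54 listed, 35 had a region, and 32 of them were below 0 between the TAC libraries. At least 1.5-fold lower were 8 and none were higher, beside 9.42% and 3.82% of all regions. The median was -0.38 against -0.20 for all regions (by peak signal -0.75, all regions -0.40 by peak). Between the sham libraries 30 of 35 were below 0 on the BCAA-free diet, with 1 lower and a median of -0.18 (all regions -0.01). Relative to the median of all regions the list stood at -0.19 after TAC and -0.17 after sham. The difference of the TAC responses stood at 0.05 on that scale. The TAC responses were small, with medians of -0.13 on the BCAA-free diet and 0.02 on the control diet.

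Oas1a, an enzyme that makes oligoadenylates to activate RNase L, had 4.3 in BCAA-free TAC, 6.08 in BCAA-free sham, 9.89 in BCAA-control TAC and 4.19 in BCAA-control sham, in a region of 1199 bp called in 1 library. Zbp1, a sensor of Z-form nucleic acid, had 8.31, 13.3, 17.7 and 13.5. Xaf1, a pro-apoptotic interferon-induced protein, had 8.76, 10.3, 17.2 and 12.5, and Rtp4, a receptor transporter induced by interferon, had 8.62, 11.5, 16.7 and 13.1. In all 4 genes BCAA-control TAC was the highest library, whereas the list median for TAC on the control diet was 0.02. The BCAA-free TAC library was 0.434-fold (0.254 to 0.72), 0.469-fold (0.39 to 0.567), 0.51-fold (0.452 to 0.575) and 0.515-fold (0.448 to 0.593) of BCAA-control TAC for Oas1a, Zbp1, Xaf1 and Rtp4. Gbp4, a guanylate-binding protein, was instead lowest in BCAA-free sham, with 9.98, 7.08, 11.2 and 12.8, and Ifit3 had 7.7, 6.48, 9.33 and 9.36. All 8 Gbp genes with a start in either class of promoter lay in the class without CpG island. Gbp and Oas genes lie in paralog clusters, so their reads are uncertain.

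**Figure D5:**
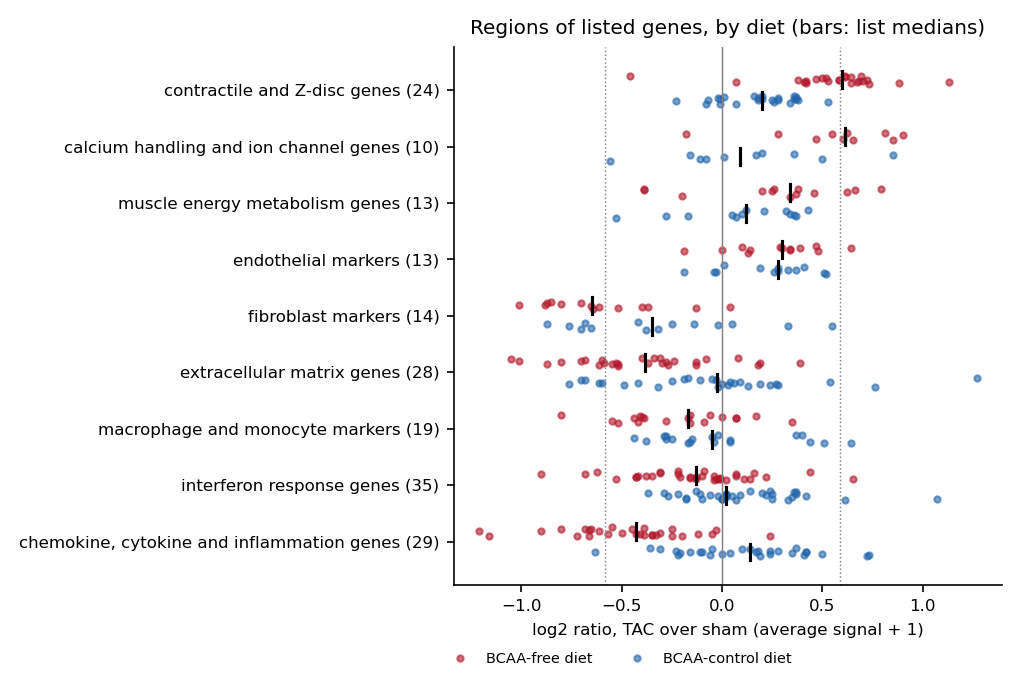
Log2 ratio of TAC over sham (horizontal axis, average signal plus 1) for each gene with a promoter region without CpG island in 9 gene lists (number of genes in brackets), with the BCAA-free diet above the BCAA-control diet. Black bars are list medians and dotted lines mark 1.5-fold. Contractile and calcium genes lie right of 0 on the BCAA-free diet (medians 0.59 and 0.61), and fibroblast and chemokine genes left of it (medians -0.64 and -0.43).

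BCAA and propionyl-CoA metabolism genes, which are mostly of the CpG-island class (25 of 37 listed start there), had 8 members here. After TAC 1 of them, Acss3, was at least 1.5-fold lower on the BCAA-free diet and none passed 1.5-fold on the control diet. Acss3, a mitochondrial enzyme that makes propionyl-CoA from propionate, had 8.1 in BCAA-free TAC, 15.2 in BCAA-free sham, 7.71 in BCAA-control TAC and 12.0 in BCAA-control sham. It was 0.533-fold (0.435 to 0.652) of its sham library on the BCAA-free diet and 0.643-fold (0.519 to 0.798) on the control diet. Dbt, a subunit of the BCAA dehydrogenase complex, had 15.3, 15.7, 14.0 and 10.7, and Hsd17b10, an enzyme of isoleucine breakdown, had 11.1, 11.2, 16.0 and 10.7. The list medians were -0.03 after TAC on the BCAA-free diet and 0.10 on the control diet, both near all regions, and 0.03 between the TAC libraries (all regions -0.20), or -0.33 by peak signal (all regions -0.40).

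Single regions, some of them also on the lists above, were ranked within each comparison among those of at least the median signal of the class that kept their sign by peak signal. Weaker regions, such as those of Nppa, Nppb and Tnc, are outside these ranks. Some ranked regions, such as those of Nid1, Ccdc147, Mog, C1ra and Zfyve19, were called in 1 library each. After TAC on the BCAA-free diet the highest ranked were upstream regions of Adam1b, a sperm metalloprotease, Ccdc147, and Ank3, an ankyrin that links membrane proteins to the cytoskeleton, followed by Trim54, Kcnj15 and Ryr2. Adam1b (1999 bp) had 15.4 in BCAA-free TAC, 3.92 in BCAA-free sham, 9.05 in BCAA-control TAC and 12.7 in BCAA-control sham, so its BCAA-free sham value stood apart from the other 3. Kcnj15, an inward-rectifier potassium channel, had in its region of 14999 bp upstream 23.2, 12.4, 17.7 and 11.7, where both TAC libraries exceeded both sham libraries. The lowest were regions of Nxf2, Gucy2c, Tbata, Ttyh1, Ms4a4d and Olfr432. Ms4a4d, of the membrane-spanning MS4A family, had 8.01, 17.9, 8.04 and 10, and the region nearest Olfr432, which spans 22199 bp beside Ifi205, had 7.97, 17.6, 6.25 and 9.14. Both were high in BCAA-free sham alone.

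For TAC over sham on the control diet the highest ranked regions, within the same limit on signal, were those of Nid1, Crispld2, Gsg1, Lcn5, Agt and Dok5. Agt, angiotensinogen, the precursor of angiotensin, had 10.7 in BCAA-free TAC, 11.0 in BCAA-free sham, 14.0 in BCAA-control TAC and 7.69 in BCAA-control sham, 1.82-fold (1.54 to 2.15) on the control diet. Nid1, the basement membrane protein nidogen, had 10.4, 11.1, 15.3 and 7.17 over 399 bp called in 1 library, and its control-diet ratio of 2.14-fold has a counting interval of 1.04 to 4.38. The lowest were Vit, Hnmt, Omd, Dcn, Ecm2 and Ttyh1, of which Vit, Omd, Dcn and Ecm2 are matrix or fibroblast genes given on the lists above. Hnmt, which inactivates histamine, had 13.4, 11.8, 9.06 and 15.5, low in BCAA-control TAC.

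Within the same limit, regions among the highest between the TAC libraries on the BCAA-free diet were those of Ppp1r3a, Max, Ppm1k, Actc1 and G6pc2. Ppp1r3a, the muscle glycogen-targeting subunit of protein phosphatase 1, had 16.9 in BCAA-free TAC, 10.9 in BCAA-free sham, 8.05 in BCAA-control TAC and 10 in BCAA-control sham. It was highest in BCAA-free TAC, by 2.1-fold (1.77 to 2.5) over BCAA-control TAC. The lowest were Chst13, Eif4a2, Mog, C1ra, Dpyd and Dynlt3, in regions of 999 to 5599 bp. Dpyd, the enzyme that starts pyrimidine breakdown, had 9.49, 10.6, 21.0 and 17.2, and C1ra, a complement protease, had 7.26, 12.1, 16.5 and 14.0, with both BCAA-free libraries below both control libraries. The C1ra region, of 999 bp, entered the table through a single library.

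Within the same limit, the regions highest between the sham libraries on the BCAA-free diet were those of Olfr432, Eps8l1, Ms4a4d, Cxcl2 (upstream), Max and Crispld2, and the lowest those of Adam1b, Ido1, Gbp4, Zfp109, Pik3r6 and Zfyve19. Eps8l1, an actin-regulating Eps8 relative, had 8.52 in BCAA-free TAC, 13.3 in BCAA-free sham, 9.63 in BCAA-control TAC and 6.85 in BCAA-control sham. Ido1, which starts tryptophan breakdown and is induced by interferon, had 12.7, 9.53, 19.1 and 17.1. Pik3r6, a regulatory subunit of phosphoinositide 3-kinase gamma, had 12.0, 7.95, 16.6 and 13.9. For Ido1 and Pik3r6 both BCAA-free libraries lay below both control libraries.

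The TAC responses on the 2 diets share no library and can be set against each other. Across the 3438 regions their log2 ratios had a Pearson correlation of 0.32 and a Spearman correlation of 0.31, given as a description, since regions of 1 library pair share depth and scaling. Regions higher after TAC on both diets numbered 40, which is 14.7% of the 273 higher on the BCAA-free diet and 20.8% of the 192 higher on the control diet. Regions lower on both numbered 27, which is 7.54% of the 358 lower on the BCAA-free diet and 45.8% of the 59 lower on the control diet. The matching overlaps over all regions were not counted, so these overlaps are not a result about the class. The median difference between the responses, BCAA-free minus control, was -0.20, the same as over all regions, and 177 regions (5.15%) were higher and 545 (15.9%) lower by 1.5-fold or more. Among regions of at least median signal, the highest by this difference were those of Adam1b, Ccdc147, Mapk10 and Hspd1, and the lowest those of Nxf2, Cxcl2, Pf4 and Eif4a2. The region named after Hspd1 lies downstream of that start, with its midpoint 7733 bp away, and also lists Coq10b and Hspe1. Mapk10, the kinase JNK3, had 12.8 in BCAA-free TAC, 6.69 in BCAA-free sham, 8.84 in BCAA-control TAC and 9.65 in BCAA-control sham.

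The remaining lists had few members or small medians. Smooth muscle and pericyte markers (9 members) had none past 1.5-fold after TAC on either diet, with medians of 0.00 on the BCAA-free diet and -0.11 on the control diet. Lymphocyte markers (7 members) had 1 lower after TAC on the BCAA-free diet, Cd2, and granulocyte and mast cell markers (4 members) had 1 lower on each diet, Mmp8, and 1 higher on the control diet, Cma1. Mmp8, the neutrophil collagenase, had 5.03 in BCAA-free TAC, 9.84 in BCAA-free sham, 4.09 in BCAA-control TAC and 8.57 in BCAA-control sham. Adipocyte markers (3 members) had 1 higher after TAC on the BCAA-free diet, Cidea. Skeletal muscle markers (3 members), fasting and glucocorticoid responsive genes (4 members) and ribosomal protein and housekeeping genes (3 members) had none past 1.5-fold after TAC on either diet. Of 48 genes of other organs, 6 had a region, none past 1.5-fold after TAC on either diet, and their summed signal was 61.6 in BCAA-free TAC, 74.4 in BCAA-free sham, 89 in BCAA-control TAC and 70.8 in BCAA-control sham.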

How the data were processed

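H3K23Pr ChIP-seq was measured in 4 libraries, 1 per diet and surgery, each from 1 pool of 3 hearts, and a pooled input library was not used here. BWA, MACS2 and the mm10 build are named, without versions or settings, per the submitters' processing notes. Peaks of the 4 libraries were merged by the authors into 1 table of regions, with an average and a peak signal per library, coverage whose scaling between libraries is not given in the sources used here. The deposited log2 ratios were recomputed as the ratio of average signals with 1 added to both. Approximate tags were taken as average signal times length divided by 224, as the tag columns deposited by the authors imply, and summed over all regions to 17097868 in BCAA-free TAC, 16960160 in BCAA-free sham, 18877108 in BCAA-control TAC and 16940649 in BCAA-control sham.

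Regions, the 21 gene lists and the comparisons were chosen with earlier results of these data known. With 1 library per group no test was run. Ratios were counted past 1.5-fold, and intervals are exact 95% Clopper-Pearson bounds of tags, or a normal approximation for a difference of 2 responses. They cover counting error only, since reads without molecular identifiers are not independent molecules. A region was called by the listed gene whose start was nearest. Genes were named by rule: the 6 highest and 6 lowest ratios of each comparison (4 and 4 for the difference) among named regions of at least median signal with the same sign by peak, the 10 highest signals, up to 4 members of a list with the largest ratios, and preset cardiac genes. Other genes were named after their values were seen. Some results are not reported here.

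RefSeq promoters (GRCm38.p6) were matched by symbol. Alternatives were other pseudocounts, peak signal, centring on all regions, filters on signal, calls, promoter number or length, and a 2-fold threshold. Python 3.11.15, numpy 2.4.6, pandas 2.3.3 and scipy 1.17.1 were used, and the scripts were tested on simulated data.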

Additional observations from a re-analysis of the deposited data

Results flagged for a closer look

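The TAC ratio went opposite ways on the 2 diets, at least 1.5-fold each way, in 10 regions, a difference that was not tested. The matching share over all regions was not counted. In 7 of them TAC was lower than sham on the BCAA-free diet and higher on the control diet, at Ren1, Phf11b, Gm16386, Pf4, Cxcl2, Slc13a4 and Gm5161. Ren1, the gene of renin, had 4.32 in BCAA-free TAC, 8.26 in BCAA-free sham, 10.8 in BCAA-control TAC and 4.58 in BCAA-control sham, in a region called in 1 library. The reverse held in 3 regions, 2 of them at Tecrl, a heart gene of the endoplasmic reticulum linked to inherited arrhythmia, and 1 near Mir361. The Tecrl start region had 7.85 in BCAA-free TAC, 4.87 in BCAA-free sham, 2.9 in BCAA-control TAC and 5.25 in BCAA-control sham, and its upstream region had 9.77, 4.02, 4.08 and 6.67. Both Tecrl regions, and those of Phf11b, Slc13a4 and Mir361, were likewise called in 1 library each. Such a region entered the table through a single library.

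The BCAA-free minus the control TAC response was -1.46 on the log2 scale at the upstream region of Cxcl2 and -1.44 at Pf4, with TAC below sham on the BCAA-free diet and above it on the control diet at both. Its list median was -0.59 over 29 chemokine, cytokine and inflammation genes and -0.45 over 6 genes of other organs, beside -0.20 over all regions. For both lists the TAC median was below 0 on the BCAA-free diet and above 0 on the control diet. None of these differences was tested.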

How the results depend on the processing

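With 1 library per group no replicate can be left out. No paired analysis was possible because each group has 1 library. The medians of the class are small, and that of TAC on the control diet (0.13) changes sign when centred on all regions. Values below are given in the order TAC on the BCAA-free diet, TAC on the control diet, BCAA-free over control after TAC, the same after sham, then the difference of the TAC responses, and counts are higher, then lower. With a pseudocount of 0.1 the lower count was 96 for TAC on the control diet and 124 between sham libraries, and the median between TAC libraries was -0.24. With a pseudocount of 5 the counts were 60 and 102, 45 and 7, 26 and 102, 12 and 11, and 60 and 208, with medians of 0.09 for TAC on the control diet, -0.15 between TAC libraries and -0.15 for the difference. By peak signal the lower counts were 622, 99, 1102, 235 and 1233, the higher counts 536 for TAC on the control diet and 223 between sham libraries, and the medians -0.16, 0.24, -0.40, 0.00 and -0.39. Centred on all regions, the counts were 85 and 145 for TAC on the control diet, 233 and 132 between TAC libraries and 388 and 228 for the difference, with medians of -0.04, -0.03 and -0.02 for the comparisons other than sham, and 0.00 for the difference. Regions of at least the median signal of all regions gave 103 and 110, 58 and 8, 26 and 170, 18 and 20, and 51 and 254, with medians of 0.17 for TAC on the control diet, -0.24 between TAC libraries, 0.00 between sham libraries and -0.25 for the difference. Regions called in all 4 libraries gave 119 and 124, 33 and 10, 36 and 123, 19 and 13, and 67 and 209, with medians of -0.18 between TAC libraries and -0.18 for the difference. Past 2-fold the counts were 22 and 48, 23 and 5, 9 and 42, 2 and 8, and 29 and 78. The filters and the higher threshold hold fewer regions by construction, and the cause of the other shifts was not tested. Over named genes, 201 of 224 values stayed on their side of 1.5-fold under 4 alternatives and 0 changed sign. These genes were chosen for extreme ratios with the same sign by peak signal, and a pseudocount cannot turn a sign. The absence of sign changes therefore follows largely from that choice and does not measure stability. Of 210 list medians by peak signal or in regions with 1 promoter, 22 changed sign. The median depth of 204 to 234 tags per region leaves wide counting intervals in short regions, and the spread between hearts cannot be judged from pools.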
